A study of Homo sapiens with 6 samples.

Results

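The CYP1 enzymes and the genes of the aryl hydrocarbon receptor were examined in polyA RNA of senescent human fibroblasts, as 8 genes of the 57819 in the deposited table. They were taken by name: the enzymes CYP1B1, CYP1A1 and CYP1A2, the receptor AHR, its partners ARNT and ARNT2, its repressor AHRR and the feedback enzyme TIPARP. The set was chosen by the rise of CYP1B1 between the knockdown and control libraries described here, so the change of CYP1B1 is described with no test and supports nothing else. All 8 were listed in the table, and 6 passed the filter of a mean of at least 10 normalized reads; CYP1A1 and CYP1A2 did not.

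The cells were IMR90, an established line of human lung fibroblasts, carrying ER:Ras, a Ras oncogene under control of an estrogen receptor domain. All 6 libraries came from cells labelled as given 200 nM 4-hydroxytamoxifen (4OHT) for 3 days, so both groups share the ER:Ras construct and the drug. The groups were a scrambled control siRNA (siSCR, n = 3) and an siRNA that targets sin-lncRNA, a long noncoding RNA (n = 3), and the comparison addresses what loss of that RNA changes in senescent cells. A single siRNA name is given for the knockdown, so loss of sin-lncRNA and other effects of that siRNA cannot be told apart. Nothing in the labels says that replicates came from separate cultures, so p-values measure the spread between these libraries, which may be technical.

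The receptor is a transcription factor of the bHLH-PAS family that waits in the cytosol bound to HSP90. On binding a ligand, such as a polycyclic aromatic hydrocarbon or a tryptophan metabolite, it enters the nucleus, pairs with ARNT and binds response elements with the core GCGTG. Its best-known targets are the CYP1 monooxygenases, which oxidise aromatic hydrocarbons and estrogens, together with AHRR, which competes with it for ARNT, and TIPARP, an ADP-ribosyltransferase that lowers its activity. CYP1B1 is the CYP1 enzyme typical of mesenchymal cells, and CYP1A2 is mainly a liver enzyme.

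Reads in genes ran from 30271192 to 50913672 in controls and from 22117324 to 27882280 in knockdowns, so that the deepest knockdown library held fewer reads than the shallowest control. The targeted lncRNA, listed as RP4-530I15.6, had 126 to 206 reads in the control libraries and 11 to 15 in those of the knockdown. The 8 fibroblast markers were all expressed, with a summed level of 15246 to 16445 RPM (reads per 1000000 reads in genes, after scaling) in controls and 11008 to 11404 in knockdowns, where 4 were higher and 4 lower. Summed levels were 0.352 to 0.533 RPM in controls and 0.314 to 0.463 in knockdowns for 4 epithelial markers, with KRT5 at 0 reads, and 0.133 to 0.235 and 0.128 to 0.321 RPM for 3 leukocyte markers. For the endothelial markers VWF and CDH5 they were 1.67 to 1.83 and 2.20 to 2.60 RPM. PECAM1, also planned as an endothelial marker, was not found by name in the deposited table. VWF, with 49 to 90 reads per library, was higher in knockdowns by 0.42 on the log2 scale (SE 0.14, adjusted p 0.034 in limma). The part of depth and of these markers in the results was not tested, beyond the fits in which every library was thinned to the smallest total. In RNA from bulk cultures, more cells expressing a gene and more RNA per cell cannot be told apart.

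CYP1B1 stood 7.29-fold higher after the knockdown, the receptor, ARNT and TIPARP rose by smaller amounts, and CYP1A1 and CYP1A2 stayed at or near the limit of detection. Of the 5 other members that could be tested, 3 rose, 0 fell and 2 did not pass the threshold (limma, Benjamini-Hochberg adjusted p under 0.05 over 19048 genes). Of those 19048 genes, 41.0% passed, 17.5% upward and 23.5% downward, with a median of -0.04 on the log2 scale, so with only 5 genes the count of 3 is no result about the set as such. Of the same 5 genes, 3 had all knockdown libraries above all controls and 1 had them all below, and 51.1% of genes tested were separated in either direction, so this count is no result about the set either.

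CYP1B1 (ENSG00000138061.7) is listed on chromosome 2 from 38294116 to 38337044 on the minus strand of hg19. It had 4.90, 5.56 and 5.70 RPM in controls 1, 2 and 3 and 37.4, 40.7 and 39.8 RPM in knockdowns 1, 2 and 3. The groups lay far apart, and the libraries within each differed little. The means were 5.39 ± 0.43 and 39.3 ± 1.7 RPM (SD, n = 3), a ratio of 7.29, resting on 167 to 287 reads per control library and on 834 to 1118 in each knockdown library. On the log2 scale the difference was 2.87 (SE 0.08), the second largest rise of the 19048 genes.

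The 2 other enzymes of the family showed almost no reads. CYP1A1 (ENSG00000140465.9, chromosome 15, 75011883 to 75017951), the classical inducible target of the receptor, had 2, 5 and 7 reads in controls 1, 2 and 3 and 2, 5 and 5 reads in knockdowns 1, 2 and 3. In RPM the controls held 0.059, 0.166 and 0.139 and the knockdowns 0.090, 0.213 and 0.178, and the groups overlapped. Summed over libraries, 14 reads in controls and 12 in knockdowns gave a ratio of 1.33, with an exact 95% interval of 0.56 to 3.09 that covers counting error only. A change of CYP1A1 within that interval, in either direction, was not detectable at this depth. CYP1A2 (ENSG00000140505.6, chromosome 15, 75041185 to 75048543) had 1 read, in control 2, and 0 in the other libraries, where a count of 0 allows up to 0.134 RPM in the shallowest library.

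**Figure D1:**
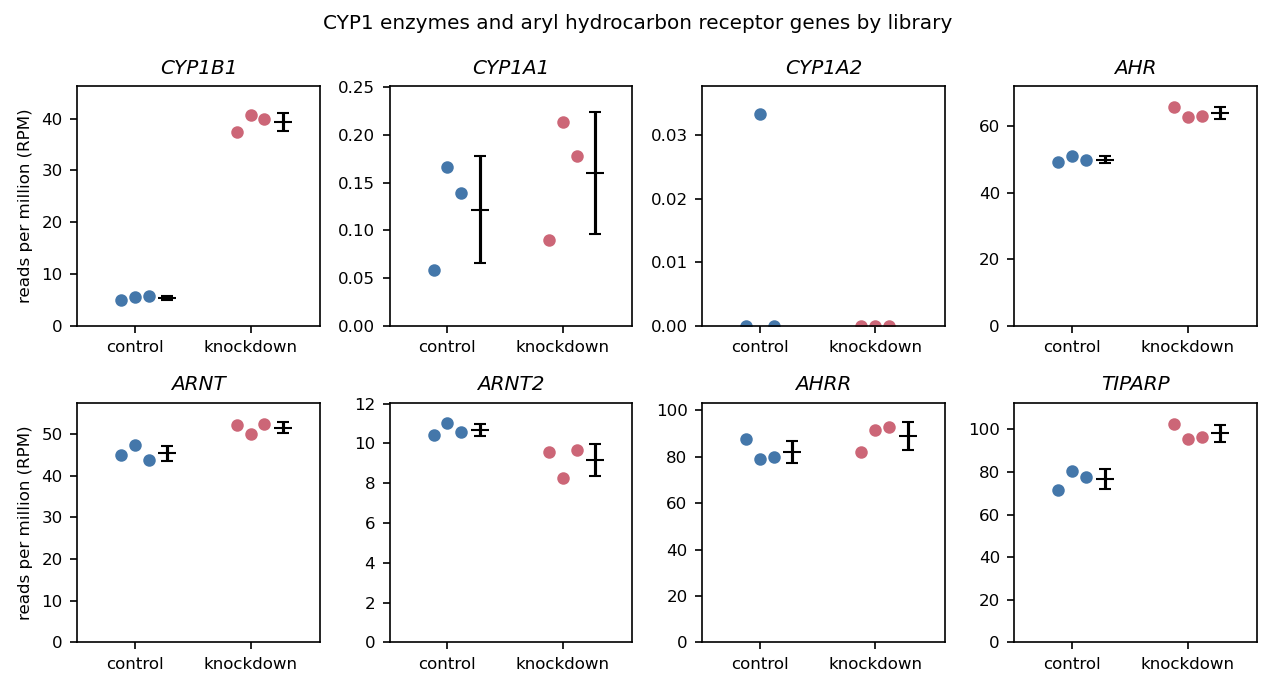
Level in RPM of each of the 8 genes in the 3 control and 3 knockdown libraries (points), with the mean and SD as bars (not drawn for CYP1A2, which had 1 read); each panel has its own axis from 0. CYP1B1 libraries sit between 4.90 and 5.70 in controls and between 37.4 and 40.7 in knockdowns, AHR, ARNT and TIPARP separate by a smaller margin, and AHRR overlaps.

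The receptor itself rose. AHR (ENSG00000106546.8, chromosome 7, 17338246 to 17385776, plus strand) had 49.2, 51.0 and 49.8 RPM in controls 1, 2 and 3 and 65.9, 62.9 and 63.0 RPM in knockdowns 1, 2 and 3. Every knockdown library was above every control. The means were 50.0 ± 1.0 and 63.9 ± 1.7 RPM (SD, n = 3), a difference of 0.35 on the log2 scale (SE 0.05; p adjusted by Benjamini-Hochberg in limma, 0.00016).

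ARNT, the partner that AHR needs to bind DNA and that hypoxia factors also use, was higher too. ARNT (ENSG00000143437.16, chromosome 1, 150782181 to 150849244, minus strand) had 44.9, 47.3 and 43.8 RPM in controls 1, 2 and 3 and 52.2, 50.0 and 52.4 RPM in knockdowns 1, 2 and 3. The groups did not overlap, but control 2 and knockdown 2 were only a few RPM apart. The log2 fold change was 0.19 (SE 0.05; adjusted p in limma, 0.014). This call was lost without control replicate 3 (adjusted p in limma, 0.074), without knockdown replicate 3 (0.055) and with the replicate number as a block (0.0506).

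ARNT2, a paralog of ARNT best known from neurons, did not pass the test. ARNT2 (ENSG00000172379.14, chromosome 15, 80696692 to 80890278, plus strand) had 10.4, 11.0 and 10.6 RPM in controls 1, 2 and 3 and 9.59, 8.24 and 9.69 RPM in knockdowns 1, 2 and 3. All 3 knockdown libraries lay below the controls, knockdown 2 the furthest. The log2 fold change was -0.22 (SE 0.09; 95% interval -0.41 to -0.03), with an adjusted p of 0.062 in limma.

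The 2 feedback genes differed in their calls. TIPARP (ENSG00000163659.8, chromosome 3, 156391024 to 156424559, plus strand) had 71.4, 80.4 and 77.8 RPM in controls 1, 2 and 3 and 102.6, 95.5 and 96.2 RPM in knockdowns 1, 2 and 3. All 3 knockdown libraries exceeded all controls, and the log2 fold change was 0.36 (SE 0.06; p adjusted by Benjamini-Hochberg in limma, 0.00043). AHRR (ENSG00000063438.12, chromosome 5, 304291 to 438406, plus strand) had 87.7, 78.9 and 79.8 RPM in controls 1, 2 and 3 and 82.2, 91.7 and 93.0 RPM in knockdowns 1, 2 and 3. Control 1 lay above knockdown 1, so the groups overlapped. Its log2 fold change was 0.11 (SE 0.06; 95% interval -0.02 to 0.25; adjusted p in limma, 0.160), and it passed without knockdown replicate 1, at 0.17 (adjusted p in limma, 0.043). The difference in response between TIPARP and AHRR was not tested.

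Promoter sequences were taken from RefSeq (GRCh38.p14), each running from 250 bases before to 50 after a start site, and 6 of the 8 members matched with 9 start sites; CYP1B1 and ARNT2 had no entry. The receptor's core motif GCGTG, searched on both strands, was found in 36.5% of the 35116 promoters of all genes in the set, and the longer TNGCGTG, which contains it, in 5.51%. GCGTG matched in CYP1A1 (1 match), AHR (1), both AHRR start sites (1 and 2) and 1 of 3 TIPARP start sites (2 matches), and not in CYP1A2 or ARNT; TNGCGTG matched at the first AHRR start site. A match is a run of letters and says nothing of binding. The sequences shown are those of 2 genes that rose, of AHRR, which did not pass, and of CYP1A1, which stayed near the limit of detection; capitals mark GCGTG or, where it lies on the other strand, CACGC.
TIPARP, chr3:156674340-156674639, plus strand: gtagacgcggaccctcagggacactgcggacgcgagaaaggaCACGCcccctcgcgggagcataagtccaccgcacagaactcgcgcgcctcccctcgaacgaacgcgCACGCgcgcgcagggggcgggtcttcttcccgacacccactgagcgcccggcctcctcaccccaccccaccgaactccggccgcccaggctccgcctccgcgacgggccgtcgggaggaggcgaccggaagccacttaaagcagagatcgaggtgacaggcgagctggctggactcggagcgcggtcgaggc
AHR, chr7:17298402-17298701, plus strand: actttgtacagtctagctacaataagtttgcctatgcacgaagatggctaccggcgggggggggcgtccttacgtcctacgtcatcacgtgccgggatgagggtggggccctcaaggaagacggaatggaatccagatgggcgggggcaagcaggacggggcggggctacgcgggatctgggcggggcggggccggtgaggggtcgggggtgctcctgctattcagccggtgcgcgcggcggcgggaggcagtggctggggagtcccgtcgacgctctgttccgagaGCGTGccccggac
AHRR, chr5:321464-321763, plus strand: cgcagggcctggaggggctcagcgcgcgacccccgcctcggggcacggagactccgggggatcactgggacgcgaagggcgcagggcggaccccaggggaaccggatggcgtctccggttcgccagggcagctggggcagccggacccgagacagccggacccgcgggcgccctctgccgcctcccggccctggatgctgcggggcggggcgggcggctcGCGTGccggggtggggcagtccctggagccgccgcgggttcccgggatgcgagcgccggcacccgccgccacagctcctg
CYP1A1, chr15:74725479-74725778, minus strand: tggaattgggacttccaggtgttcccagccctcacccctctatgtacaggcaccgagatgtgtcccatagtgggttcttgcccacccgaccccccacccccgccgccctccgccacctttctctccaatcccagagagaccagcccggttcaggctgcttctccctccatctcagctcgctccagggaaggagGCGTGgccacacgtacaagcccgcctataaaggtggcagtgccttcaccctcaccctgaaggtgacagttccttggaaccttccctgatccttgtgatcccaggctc
Among genes that rose, the core motif was present for AHR and at 1 of 3 TIPARP start sites, and absent for ARNT. It was also present for CYP1A1, with few reads, and at both start sites of AHRR, which did not pass. Whether the motif goes with the changes was not tested.

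Overlapping genes bear on some of these values, since the strand setting of the counting is not given in the sources used here. AHRR shares 49681 bases of its span with PDCD6 on the same strand, and PDCD6, an apoptosis-linked calcium-binding protein gene, fell by 0.13 on the log2 scale (SE 0.05; adjusted p in limma, 0.040, lost under 11 of the 17 alternatives). The level of AHRR is therefore uncertain. CYP1B1 shares 34254 bases with CYP1B1-AS1 on the opposite strand, which had 2, 0 and 1 reads in controls 1, 2 and 3 and 6, 7 and 6 reads in knockdowns 1, 2 and 3. These are too few for the test, and whether reads of the antisense gene come from CYP1B1 was not tested. CYP1B1 also meets RMDN2, a microtubule-associated protein gene on the opposite strand, over 170 bases. Whether reads counted for RMDN2 come from CYP1B1 was not tested. RMDN2 rose from 2.97 ± 0.02 to 3.99 ± 0.06 RPM (SD, n = 3), a difference of 0.43 on the log2 scale (SE 0.11; adjusted p in limma, 0.0088). CTD-2228K2.2, opposite to AHRR over 816 bases, had 8 to 15 reads per library. At 0.47 on the log2 scale (SE 0.30) it did not pass (adjusted p in limma, 0.238), and it passed at 0.0499 with no intensity trend. Its mean over the controls alone was under the filter, so it was tested only through the knockdown libraries and that pass supports nothing. The 9 other genes that overlap a tested member were below the filter.

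Within 500 kb of CYP1B1 the table lists 21 other genes, and 6 could be tested. Of these, 3 passed, 1 upward (RMDN2, which overlaps CYP1B1) and 2 downward, beside 41.0% of all genes tested, 17.5% upward and 23.5% downward. The median log2 fold change of the 6 was -0.04, and with only 6 genes the count is no result about the neighbourhood. Both that fell are pseudogenes on chromosome 2, RPLP0P6 (-0.28, SE 0.04) and AC010878.3 (-0.18, SE 0.06), of which AC010878.3 lost its call under 9 of the 17 alternatives. Reads of a pseudogene may belong to its parent gene. No neighbour tested changed by as much as CYP1B1, but CYP1B1 was chosen by its rise, so this is no result about the locus.

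Compared per length, the genes stood in a wide order of levels. In controls TIPARP had 15.2 ± 0.9 RPKM (RPM per kilobase of exon), AHRR 10.7 ± 0.6, ARNT 6.96 ± 0.28, AHR 6.19 ± 0.12, ARNT2 1.38 ± 0.04, CYP1B1 0.896 ± 0.071, and CYP1A1 0.035 ± 0.016 (SD, n = 3). CYP1A2 had 0.012 RPKM in control 2, from 1 read, and 0 reads in controls 1 and 3. The lowest library of each of the first 6 genes lay above the highest of the next. The place of AHRR is uncertain in both groups, since it overlaps PDCD6 on the same strand. In knockdowns TIPARP stood at 19.4 ± 0.8 RPKM, AHRR at 11.6 ± 0.8, AHR at 7.91 ± 0.21, ARNT at 7.91 ± 0.20, CYP1B1 at 6.54 ± 0.29 and ARNT2 at 1.19 ± 0.10. There AHR and ARNT did not differ beyond their spread, and CYP1B1 lay above ARNT2 and below both.

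Among cytochrome P450 genes, haem-containing monooxygenases, CYP1B1 took a larger share after the knockdown, which follows from the rise that chose it. The table lists 54 protein-coding P450 genes, CYP1 included, and the share of their reads that fell to CYP1B1 was 6.57% ± 0.73 in control libraries and 33.0% ± 1.0 after the knockdown (SD, n = 3). Its place per length among them was the seventh or the sixth in each control and the second in every knockdown. The first place belonged in all 6 libraries to CYP2S1, an enzyme also listed as a receptor target, with 11.7 ± 0.1 RPKM in controls and 12.01 ± 0.60 in knockdowns (log2 fold change 0.03, SE 0.06; adjusted p in limma, 0.685).

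Of the 51 other P450 genes, 12 could be tested, 4 rose, 1 fell and 7 did not pass; their median log2 fold change was 0.23. The share that passed, 41.7%, was close to the 41.0% of all genes tested. CYP3A7, a fetal liver enzyme, rose by 2.15 (SE 0.30, adjusted p 0.00022 in limma) from 0.213 ± 0.041 to 1.00 ± 0.25 RPM. That is a low level, and the reads may be shared with its close copies. With 8, 5 and 12 reads in controls 1, 2 and 3, its mean over the controls alone was under the filter. CYP3A7, among the 4 that rose, was thus tested only through the knockdown libraries, and its pass supports nothing. CYP2E1, which oxidises ethanol, rose by 0.94 (SE 0.24; adjusted p in limma, 0.0088). CYP51A1, a sterol demethylase of cholesterol synthesis, fell by 1.03 (SE 0.14; adjusted p in limma, 0.00016). With no filter 8 of these genes passed, and with a mean of at least 50 reads 3 did.

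**Figure D2:**
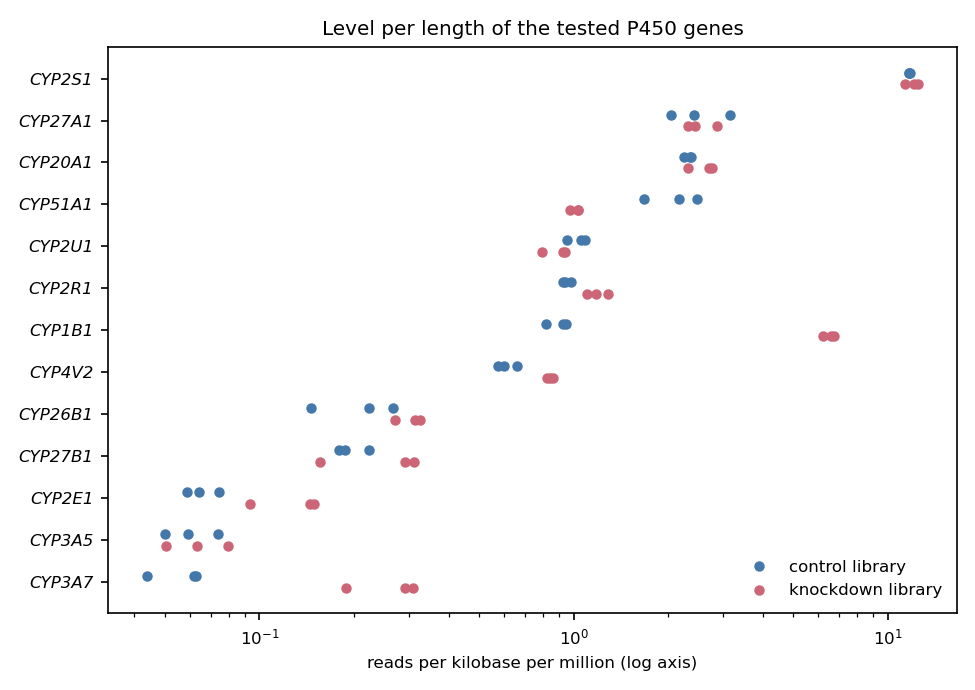
Level per length (log axis, RPKM) of the 13 tested P450 genes in each control and knockdown library, 1 point per library. CYP1B1 moves from 0.896 to 6.54 RPKM on average, next to CYP2S1, while CYP51A1 moves the other way.

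The partners of the receptor pathway were described with 8 lists of 78 genes, of which 61 could be tested and 35 passed, 10 upward and 25 downward, beside 41.0% of all genes tested, 17.5% upward and 23.5% downward. Counts in the lists below are to be read against those shares, and nothing particular to a list is drawn from them. The lists were drawn up with results of these libraries known. Of the 4 receptor chaperones, 0 rose and 2 fell, with a median log2 fold change of -0.09. HSP90AA1 (-0.26, SE 0.06) and HSP90AB1 (-0.21, SE 0.05), the HSP90 isoforms that hold the receptor, fell (adjusted p in limma, 0.0063 and 0.0080). Both lost the call when the prior variance had no trend with intensity (0.055 and 0.059). PTGES3, a co-chaperone of HSP90, did not pass, at 0.02 on the log2 scale (SE 0.04).

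Other genes known as targets of the receptor moved both ways. Of 13 listed, 9 could be tested, 1 rose, 4 fell and 4 did not pass, with a median log2 fold change of 0.03. STC2, a secreted glycoprotein, rose from 115.7 ± 6.1 to 213.7 ± 7.4 RPM (SD, n = 3; log2 fold change 0.89, SE 0.05; adjusted p in limma, 5.0e-07). SERPINB2, an inhibitor of plasminogen activators, had 25.5, 37.5 and 33.3 RPM in controls 1, 2 and 3 and 15.9, 14.8 and 13.4 RPM in knockdowns 1, 2 and 3, a difference of -1.11 on the log2 scale (SE 0.12; adjusted p in limma, 4.2e-05). EREG, an EGF receptor ligand, fell from 108.9 ± 1.1 to 70.0 ± 2.5 RPM (log2 fold change -0.64, SE 0.04; adjusted p in limma, 2.0e-06).

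NQO1, a quinone reductase of the receptor's classical gene battery, also fell. It had 159.6, 173.3 and 180.8 RPM in controls 1, 2 and 3 and 137.4, 138.1 and 154.9 RPM in knockdowns 1, 2 and 3. No knockdown library reached the lowest control. The log2 fold change was -0.26 (SE 0.06; adjusted p in limma, 0.0061, and 0.0501 without an intensity trend). ALDH3A1 and UGT1A6, of the same battery, had 0 reads in every library.

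**Figure D3:**
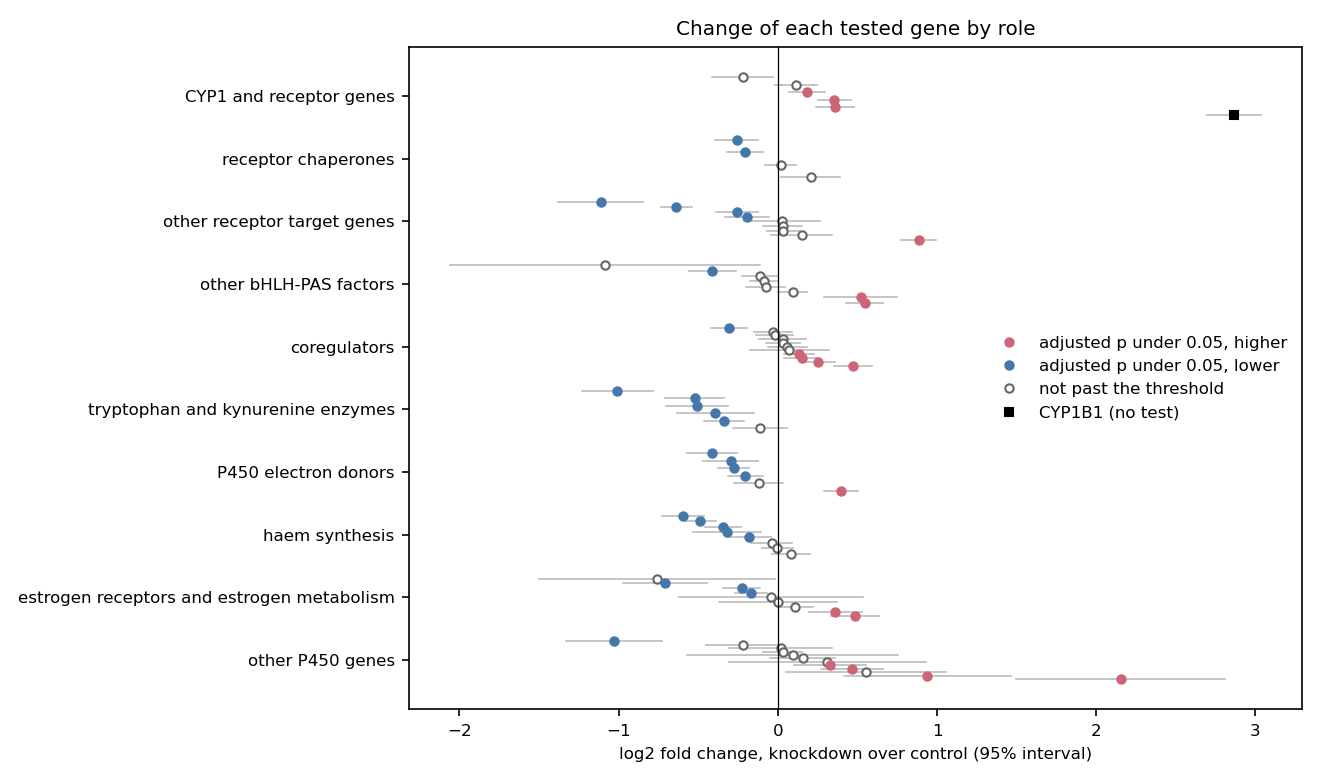
Log2 fold change (knockdown over control) with its 95% interval for each tested gene, by role; coloured points passed an adjusted p of 0.05 in limma, and the square is CYP1B1, given without a test. CYP1B1 lies at 2.87, and points past the threshold lie on both the higher and the lower side. Of all genes tested, 17.5% passed upward and 23.5% downward.

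Of 12 other bHLH-PAS factors, 8 could be tested, 2 rose, 1 fell and 5 did not pass, with a median log2 fold change of -0.08. The clock factor ARNTL, which pairs with CLOCK, rose from 22.5 ± 0.4 to 32.9 ± 0.2 RPM (SD, n = 3; log2 fold change 0.55, SE 0.05; adjusted p in limma, 1.7e-05), and SIM2, which pairs with ARNT, rose by 0.52 (SE 0.10; adjusted p in limma, 0.0023). ARNTL2, the paralog of ARNTL, fell by 0.41 on the log2 scale (SE 0.07; adjusted p in limma, 0.00059). Of 11 coregulators, 4 rose, 1 fell and 6 did not pass, with a median of 0.06. NCOA1, a steroid receptor coactivator, rose by 0.47 (SE 0.05) and the acetyltransferase EP300 by 0.25 (SE 0.05), and the arginine methyltransferase CARM1 fell by 0.31 (SE 0.05).

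The next list holds enzymes of tryptophan and kynurenine metabolism, and some kynurenines are ligands of the receptor. Of 13 listed, 6 passed the filter, 0 rose, 5 fell and 1 did not pass, with a median log2 fold change of -0.45. IDO1 and TDO2, which start the pathway, were among the 7 not tested, with too few reads for the filter. KYNU, which cleaves kynurenine, had 13.2, 15.6 and 15.5 RPM in controls 1, 2 and 3 and 7.53, 8.03 and 6.48 RPM in knockdowns 1, 2 and 3 (log2 fold change -1.01, SE 0.10; adjusted p in limma, 2.3e-05). AFMID, which forms kynurenine from its formyl precursor, fell by 0.52 on the log2 scale (SE 0.08; adjusted p in limma, 0.00057).

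Genes that supply P450 enzymes with electrons and haem were listed as well. Of 6 electron donors and their partners, 1 rose and 4 fell, with a median log2 fold change of -0.24. POR, the reductase that serves CYP1B1 and other microsomal P450 enzymes, had 59.5, 52.1 and 57.6 RPM in controls 1, 2 and 3 and 40.7, 47.7 and 49.8 RPM in knockdowns 1, 2 and 3 (log2 fold change -0.30, SE 0.08; adjusted p in limma, 0.011, and 0.065 without an intensity trend). CYB5R3, the cytochrome b5 reductase, fell by 0.41 (SE 0.07; adjusted p in limma, 0.00087), and the haem-binding membrane protein gene PGRMC2 rose by 0.40 (SE 0.05; adjusted p in limma, 9.9e-05).

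Of the 8 enzymes of haem synthesis, 0 rose, 5 fell and 3 did not pass, with a median log2 fold change of -0.25. FECH, which inserts the iron in the last step, fell from 22.1 ± 0.2 to 14.6 ± 0.4 RPM (SD, n = 3; log2 fold change -0.60, SE 0.06; adjusted p in limma, 2.5e-05). UROD, the decarboxylase, fell from 94.8 ± 1.7 to 67.6 ± 1.7 RPM (log2 fold change -0.49, SE 0.04; adjusted p in limma, 1.1e-05). ALAS1, which sets the rate of the first step and was named after its value was seen, had a log2 fold change of 0.00 (SE 0.04) and did not pass.

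Estrogens are substrates of CYP1B1, and 4OHT is a ligand of estrogen receptors, so the genes of that system were listed too. Of 11, 9 could be tested, 2 rose, 3 fell and 4 did not pass, with a median log2 fold change of -0.04. STS, which releases estrogens from their sulfates, rose by 0.49 (SE 0.07; adjusted p in limma, 0.00024). GPER1, a membrane receptor for estrogen, fell by 0.71 on the log2 scale (SE 0.12; adjusted p in limma, 0.00079). ESR1 had 616.9, 630.8 and 630.6 RPM in controls 1, 2 and 3 and 560.5, 557.8 and 490.6 RPM in knockdowns 1, 2 and 3 (log2 fold change -0.23, SE 0.05; adjusted p in limma, 0.0056); reads of the ER:Ras construct and of the cell's own ESR1 were not told apart.

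Of the 15114 other genes with a mean of at least 50 normalized reads, those whose profile over the 6 libraries lay nearest to that of CYP1B1, by Euclidean distance of log2 values less each gene's mean, were ADAM12 (0.38), IL1RAP (0.40), AGT (0.73), C1QTNF7 (0.76) and MAMDC2 (0.81). The distance weighs the difference between the groups most, and all 6 libraries are shared, so this is a description. ADAM12 encodes a membrane metalloprotease, IL1RAP the accessory chain of the interleukin-1 receptor, AGT angiotensinogen and C1QTNF7 a secreted protein related to complement C1q. C1QTNF7 went from 3.42 ± 0.29 to 17.0 ± 0.4 RPM (SD, n = 3), a ratio of 4.97.

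**Figure D4:**
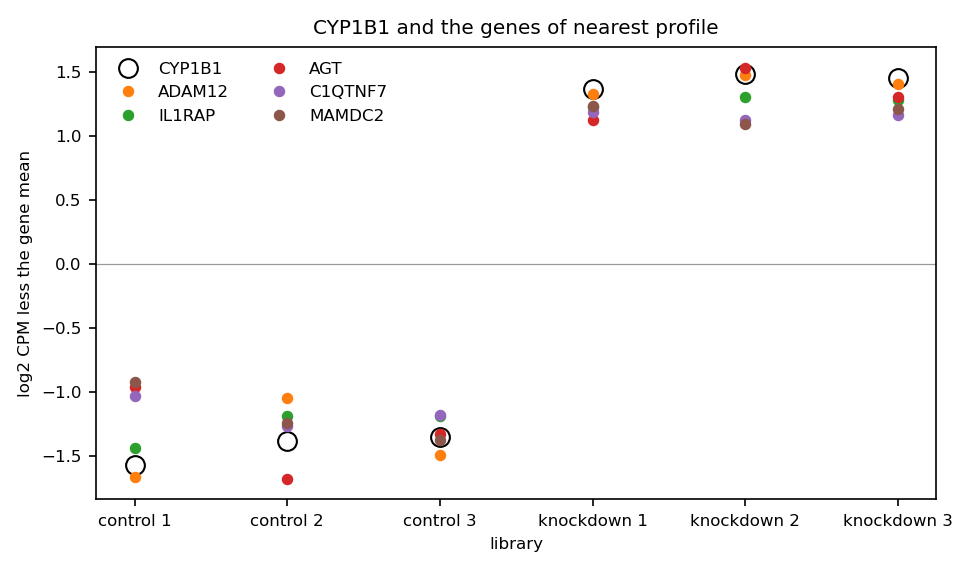
Log2 CPM (the deposited scale) less each gene's mean (y axis) in the 3 control and 3 knockdown libraries (x axis) for CYP1B1 (open circles) and its 5 nearest genes. All 6 genes lie below 0 in every control and above 0 in every knockdown, and ADAM12 and IL1RAP lie closest to CYP1B1 over the libraries together.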

How the data were processed

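PolyA RNA was sequenced in 6 libraries of 4OHT-treated IMR90 ER:Ras cells, 3 per siRNA group, and groups and replicate numbers came from the sample titles. The authors deposited a table named as normalized counts, whose values are log2 CPM. Undoing an offset of 0.5 reads and the library scale gave whole reads for 100% of values, within 0.01 reads. The submitters' processing notes name Bowtie2, featureCounts and hg19; strand setting and annotation release are not given in the sources used here. Coordinates are those of the table. The knockdown columns carry an ending that the labels do not explain.

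RPM are recovered reads per 1000000 of effective library size, without the offset. RPKM divide them by the exon union length of the gene in GENCODE 29, matched by ID. The deposited log2 values were fitted with limma 3.58.1 in R 4.3.3 (lmFit, eBayes with an intensity trend, group as the sole term, two-sided), and p-values were adjusted by Benjamini-Hochberg over the 19048 genes with a mean of at least 10 normalized reads. Fold changes carry the 0.5-read offset, which alters those of low genes and, as the knockdown libraries were shallower, moves genes near 0 reads upward. The exact permutation test of 3 against 3 libraries cannot go below 0.1 and was not used. Intervals for reads cover counting error only.

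The members and lists were chosen with earlier results of these data known. The text names all members, the target, in each list the up to 2 largest rises and falls past the threshold, genes overlapping a member, NQO1, the leading P450 gene and the 5 nearest profiles; PTGES3, ALAS1, ALDH3A1, UGT1A6, IDO1 and TDO2 were added after their values were seen. Some genes are not reported here. All 6 libraries share a code in the labels and each also has an unexplained number that no other has, so no within-batch value could be had beside the fit with the replicate number as a block.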

Additional observations from a re-analysis of the deposited data

How the results depend on the processing

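The results were recomputed in 17 other fits: offsets of 1 and 5 reads, no filter, a mean of at least 50 reads, 3 scalings, no intensity trend, voom, thinning, each library left out and the replicate number as a block. The log2 fold change of CYP1B1 ran from 2.80 (without control replicate 1) to 2.92 (quantile normalization). AHR ran from 0.33 to 0.40 and TIPARP from 0.31 to 0.40, past the threshold in all fits. The genes changed numbered 5806 (without control replicate 3) to 10220 (no filter), and the members changed other than CYP1B1 2 to 4. Of the genes changed, 42.6% were higher in the reported fit, 49.4% with quantile normalization and 54.2% with no filter. With no filter the median over all genes was 0.60 on the log2 scale, since 23130 genes had no read in any library and the fixed offset then weighs more in shallower libraries. The other P450 genes changed numbered 8 with no filter and 3 with a mean of at least 50 reads, where 51 and 7 were tested, against 12. Leaving out 1 library moved CYP2S1 from 0.03 to between -0.000111 (without knockdown replicate 2) and 0.07131 (without knockdown replicate 1), with no call. Of 42 named genes tested besides CYP1B1, 32 kept direction and call in all 17 fits, 7 lost a call in at least 1 and 2 gained one; where the cause is not given, it was not tested.

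No pairing by replicate number was found, since the correlations of same-numbered libraries, after removing group means, were -0.15, -0.18 and 0.07. In the fit with the replicate block, 6454 genes and 2 members other than CYP1B1 passed, and CYP1B1 stood at 2.87. Depth limits CYP1A1, CYP1A2 and CYP1B1-AS1, with at most 7 reads per library.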
